A study of Mus musculus with 62 samples.

Results

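The unfolded protein response was examined through 10 gene symbols that cover its 3 stress sensors (*Ern1*, *Eif2ak3* and *Atf6*), 3 of its transcription factors (*Atf4*, *Xbp1* and *Ddit3*) and 4 of its endoplasmic reticulum (ER) target genes (*Hspa5*, *Herpud1*, *Dnajb9* and *Sdf2l1*). Members were chosen by gene symbol alone, which gave 11 of the 56415 gene IDs in the count table because *Ddit3* carries 2 IDs. The mice were male C57BL/6J animals of 8 to 10 weeks injected intraperitoneally with saline or with ethanol at 2 g/kg, either on 1 day (acute) or daily for 10 days (chronic), and all were killed 4 h after the last injection. Poly(A) RNA was sequenced from the cortex (CTX), from the hippocampus in its dorsal (dHPC) and ventral (vHPC) parts and from the striatum in its dorsal (DS) and ventral (VS) parts, in 62 libraries that form 20 groups of 3 mice, or of 4 mice in 2 of them (dHPC acute ethanol and DS chronic ethanol). The labels name the mouse behind each library, so the same 16 mice, 4 in each of the 4 treatment conditions, were followed across regions, although no region holds every mouse. A mouse number is used only within its condition, so mouse 6 of the chronic ethanol group and mouse 6 of the chronic saline group are different animals.

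The unfolded protein response adjusts the folding capacity of the ER to its load. The kinase and endoribonuclease IRE1 (*Ern1*) splices the *Xbp1* mRNA, the kinase PERK (*Eif2ak3*) phosphorylates the initiation factor eIF2 and thereby favors translation of *Atf4*, and ATF6 (*Atf6*) is cleaved into a transcription factor. ATF6 and spliced XBP1 drive genes for chaperones and ER-associated degradation, among them *Hspa5*, while ATF4 drives amino acid and redox genes and *Ddit3*. Sensor splicing activity, phosphorylation and cleavage are not read by mRNA counts, so the values below are mRNA levels only.

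*Hspa5* encodes BiP, the Hsp70 chaperone of the ER and a usual readout of ATF6 and XBP1 activity, and its promoter shows the element those factors read, the ER stress response element. The letters searched were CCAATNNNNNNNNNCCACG on either strand, from 250 bases before to 50 after the RefSeq gene start (GRCm38.p6), and 39 of 32851 promoters (0.119%) held them. Of the 9 members with a promoter in that table, only *Hspa5* held this element, and only *Herpud1* held the related ERSE-II element ATTGGNCCACG, which 12 promoters (0.0365%) held. *Pdia6* and *Creld2*, the ER chaperone genes outside the set whose levels followed *Hspa5* most closely over all 62 libraries (below), both held the first element. So did *Calr*, which ranked above both over the 61 libraries left once an incomplete one, where it reads 0, is set aside, and in all 7 of the 17 listed ER chaperones with a promoter held it. *Pdia4*, *Xbp1* and *Sdf2l1* also followed *Hspa5* closely and did not hold it. The stretches are shown because these genes varied together, with the element in capitals, and in *Creld2* it lies on the other strand. The *Hspa5* stretch is chr2:34771995-34772073 (+), 95 to 17 bases before the start. The *Herpud1* stretch is chr8:94386347-94386417 (+), 82 to 12 bases before it. The *Pdia6* stretch is chr12:17266461-17266539 (+), 128 to 50 bases before it, and the *Creld2* stretch is chr15:88819490-88819568 (+), 156 to 78 bases before it.
Hspa5: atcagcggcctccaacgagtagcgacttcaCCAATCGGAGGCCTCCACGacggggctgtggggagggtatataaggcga
Herpud1: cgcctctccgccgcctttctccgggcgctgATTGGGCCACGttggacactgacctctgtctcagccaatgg
Pdia6: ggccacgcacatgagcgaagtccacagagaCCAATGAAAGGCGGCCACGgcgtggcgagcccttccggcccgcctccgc
Creld2: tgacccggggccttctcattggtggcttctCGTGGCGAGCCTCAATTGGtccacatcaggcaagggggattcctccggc

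A further pair of short motifs was searched in the same way. The UPR element core TGACGTG occurred in 2.01% of all promoters and in 1 of the 9 members (*Hspa5*), and the ATF4-type core TGATGCAA occurred in 0.895% and in 1 member (*Herpud1*). A match describes letters in this window and is not evidence of binding, and the promoter of *Atf6* was not analysed here.

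*Xbp1* is shown for a second sequence, the annotated intron at the site that IRE1 splices outside the nucleus. In GRCm39 the annotated isoform Xbp1-205 has an intron of 26 bases at chr11:5474278-5474303 (+), in capitals below within chr11:5474250-5474331, whereas the shortest intron of Xbp1-201 is 300 bases. The capitals start with G and a g follows them, so an intron read from the next base on gives the same spliced sequence. Read pairs were counted for every isoform they overlap, so spliced and unspliced *Xbp1* could not be told apart from the isoform counts.
Xbp1: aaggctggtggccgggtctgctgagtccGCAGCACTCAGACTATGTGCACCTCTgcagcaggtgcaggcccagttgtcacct

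The gene positions (GRCm39) are chr11:106285476-106378622 (−) for *Ern1*, chr6:70821499-70882229 (+) for *Eif2ak3*, chr1:170532243-170695340 (−) for *Atf6*, chr15:80139385-80141742 (+) for *Atf4*, chr11:5470659-5475242 (+) for *Xbp1* and chr10:127126643-127131934 (+) for *Ddit3*. The targets lie at chr2:34661982-34667559 (+) for *Hspa5*, chr8:95113066-95121992 (+) for *Herpud1*, chr12:44252342-44257109 (−) for *Dnajb9* and chr16:16948002-16950247 (−) for *Sdf2l1*. Another gene overlaps *Atf6*, *Eif2ak3*, *Ddit3*, *Herpud1* and *Dnajb9* on the opposite strand, and in the libraries whose kit does not mark strand, reads from such partners cannot be told apart.

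Library totals ranged from 8149628 to 71164766 counts, with medians of 51703961 in CTX, 48892266 in dHPC, 14530176 in vHPC, 14524117 in VS and 13091491 in DS. CTX and dHPC libraries were made with a kit that does not mark strand (batch 1) and the other regions with a directional kit (batch 2), so each test was made within a region and levels of different batches are only set side by side. All were counted under a setting that takes pairs from 1 strand only, so the CTX and dHPC totals leave out the pairs that align to the opposite strand of a gene. The region labels were checked against marker genes. Summed pallial excitatory neuron markers were 1727 to 4349 CPM (counts scaled to library size, TMM-normalized) in CTX, dHPC and vHPC and 213 to 1271 in DS and VS, while summed striatal projection neuron markers were at least 3607 in every DS and VS library. Striatal markers reached 3566 CPM in 1 dHPC library (chronic saline mouse 5), against a dHPC median of 641, and 1904 and 1613 CPM in 2 vHPC libraries (chronic ethanol mouse 5 and acute ethanol mouse 4), against a vHPC median of 474. *Hspa5* was 222 and 208 CPM in that vHPC pair, against 162 to 372 CPM over all vHPC libraries, and the part of striatal tissue in the vHPC results was not tested. Choroid plexus markers, led by *Ttr*, ran from 28.01 to 3307 CPM within vHPC alone.

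Besides these libraries, 2 of DS stood apart before any test. DS acute ethanol mouse 5 held 46564992 counts, where the next highest DS library held 16018549. DS chronic saline mouse 2 was incomplete. It lacked all counts of chromosomes 7, 8, 9, MT, X and Y and those of chromosome 6 beyond 22875501, where 17470 genes lie, and *Eif2ak3* (chromosome 6) and *Herpud1* (chromosome 8) therefore read 0 in it. Values of these 2 genes that include it are given with and without it. With it, the log2 fold change of *Herpud1* after chronic ethanol in DS was 0.79 ± 1.41 (SE), and without it 0.20 ± 0.15. *Eif2ak3* went from 0.44 ± 1.36 to −0.15 ± 0.15. The DS interactions moved likewise, from 0.77 to 0.19 for *Herpud1* and from 0.48 to −0.10 for *Eif2ak3*, and none of these passed the test.

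Saline libraries give the resting order of the set. Per kb of exon, *Hspa5* was the highest member in every region, at 49.0 ± 8.8 CPM per kb in CTX, 49.1 ± 7.0 in dHPC, 49.6 ± 13.2 in vHPC, 59.1 ± 11.5 in VS and 59.7 ± 8.5 in DS (mean ± SD, n = 6 libraries of both paradigms). *Atf4* followed in CTX at 42.0 ± 3.3, and was 34.2 ± 2.7 in dHPC, 33.7 ± 4.0 in vHPC, 30.04 ± 3.9 in VS and 29.2 ± 5.0 in DS. The sensor kinases stood lowest in every region, *Eif2ak3* at 3.74 to 4.73 CPM per kb and *Ern1*, the last, at 1.19 to 1.58. *Atf6*, at 8.89 to 11.2, lay above *Sdf2l1* in every region and above the longer *Ddit3* ID in vHPC and, by less than either SD, in DS. *Hspa5* and *Atf4* of CTX differed by less than the SD of *Hspa5*, whereas *Eif2ak3* and *Ern1* were further apart than either SD in every region.

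**Figure D1:**
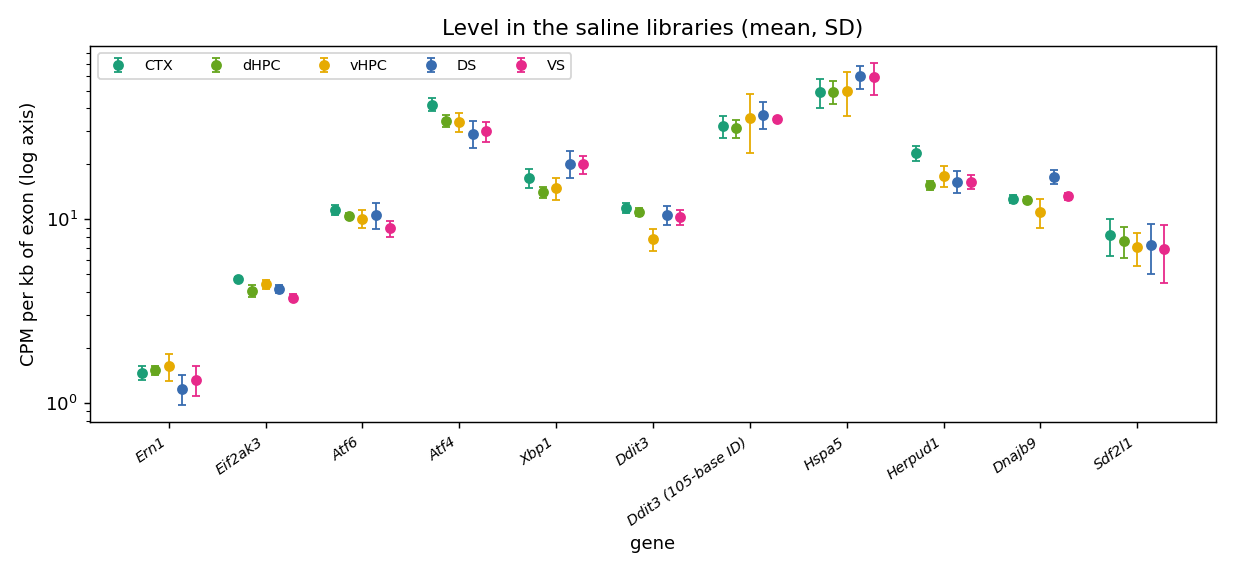
Level of each gene ID in saline libraries, in TMM-normalized CPM per kb of exon on a log axis, with points for the mean and bars for the SD of 6 libraries per region (5 for Eif2ak3 and Herpud1 in DS). Hspa5 lies highest at 49.0 to 59.7 and Ern1 lowest at 1.19 to 1.58 in all 5 regions.

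Of the members between *Hspa5* and the kinases, *Xbp1* was at 14.02 ± 1.0 CPM per kb in dHPC and 20.0 ± 3.3 in DS. *Herpud1*, an ER membrane protein of the degradation machinery, was 22.8 ± 2.1 in CTX and 15.3 ± 0.9 in dHPC, 2 regions of the same batch, with a gap wider than either SD. *Dnajb9*, a J-domain partner of BiP that also represses IRE1, was 17.0 ± 1.5 in DS, against 13.3 ± 0.6 in VS and 10.9 ± 2.0 in vHPC. *Sdf2l1*, an ER lumen protein that works with BiP's J-domain partners, was 6.87 to 8.15 in the 5 regions, neighbors that did not differ beyond their SD. *Ddit3*, which encodes CHOP, was 7.80 ± 1.06 in vHPC and 10.2 to 11.5 elsewhere. Its second ID covers 105 bases inside the first on the same strand, and pairs that overlap both were counted for both, so its 31.1 to 37.0 CPM per kb rests on only 3.27 to 3.88 CPM.

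Ethanol and saline libraries of the same region and paradigm were compared by edgeR's quasi-likelihood F test, with an FDR below 0.1 over all genes tested as the call and DESeq2 as the alternative. All 11 IDs were tested everywhere. Groups are said not to overlap where every ethanol library lay above, or every one below, all saline libraries. Groups this small can separate so by chance, for members and marker sums alike, and this is a description, not a test. It held for 1 (as in dHPC acute) to 4 (DS acute) of the 11 IDs per pairwise comparison. How many of all genes did so was not counted. Of the 110 pairwise tests, edgeR called 1, *Atf6* in DS after acute ethanol, and DESeq2 called 2, the same one and *Hspa5* in vHPC after chronic ethanol. At an unadjusted edgeR p below 0.05 there were 18 of the 110, against 9.76% of all gene tests in these 10 comparisons. Of the 55 interaction tests, in which the chronic change is compared with the acute change, edgeR called 0, DESeq2 called 2 (*Hspa5* and *Dnajb9* in vHPC), and 4 had an unadjusted edgeR p below 0.05, against 6.21% of all gene tests in the 5 interactions.

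These counts are read against how much of the whole transcriptome was called. After acute ethanol, edgeR called 1.99% and DESeq2 3.69% of the genes tested in CTX, where neither called a member. In dHPC the shares were 0.042% and 1.07%, again with 0 members by either tool. In vHPC they were 0% and 2.9%, and in VS 0.0399% and 0.889%, both with 0 members by either tool, while in DS they were 5.15% and 6.4% with 1 member of 11 by each. The acute tests with 0 members held 1 (CTX), 1 (dHPC), 3 (vHPC) and 2 (VS) of 11 members at an unadjusted edgeR p below 0.05, a level that 12.5%, 7.88%, 11.9% and 7.32% of all genes reached there. DS acute held 4 of 11 members at that level, against 15.5% of all genes. In CTX and dHPC the members' share was thus close to that of all genes.

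After chronic ethanol, the shares by edgeR and DESeq2 were 0% and 0.608% in CTX, 0% and 0.859% in dHPC, 0% and 1.02% in DS and 0% and 1.79% in VS, with 0 members by either tool in each. The members at an unadjusted edgeR p below 0.05 numbered 1 in CTX, 1 in dHPC, 1 in DS and 0 in VS, against 10.4%, 8.23%, 4.42% and 9.95% of all genes. In vHPC edgeR called 0.0555% of genes and 0 members (4 at an unadjusted p below 0.05, against 9.51% of all genes), and DESeq2 called 1.08% and 1 member. Of the interactions, edgeR called 0% in all 5 regions. DESeq2 called 0.0791% in CTX, 0.00745% in dHPC, 0.0142% in DS and 0.0191% in VS with 0 members, and 2.02% in vHPC with 2 members. The unadjusted edgeR p was below 0.05 for 3 members in the vHPC interaction (11.5% of all genes), 1 in the DS interaction (2.28%) and 0 in CTX, dHPC and VS (8.19%, 4.48% and 4.62%).

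**Figure D2:**
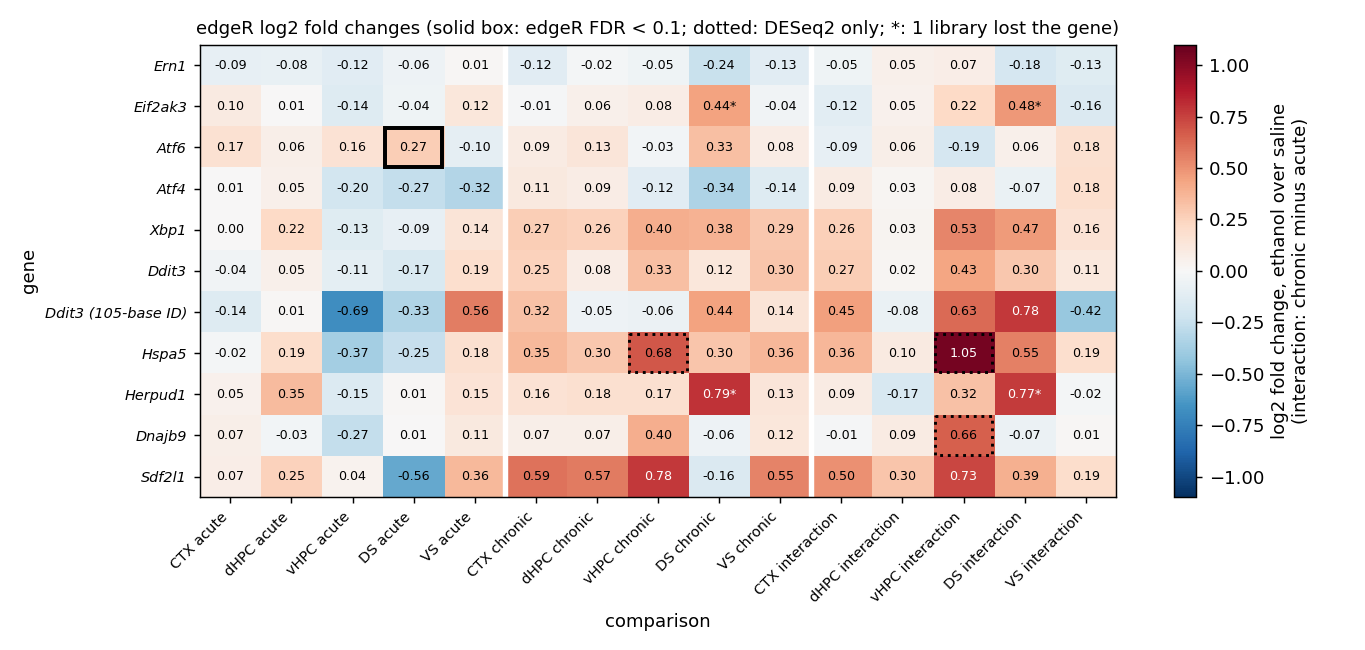
Log2 fold change of ethanol over saline for each gene ID (rows) in the 10 pairwise comparisons, and chronic minus acute change in the 5 interactions, with color for sign and size. Atf6 in DS acute (0.27) has the only solid box, an edgeR call, and dotted boxes mark the DESeq2 calls of Hspa5 in vHPC chronic (0.68) and of Hspa5 (1.05) and Dnajb9 (0.66) in the vHPC interaction; asterisks mark values that include the incomplete DS library.

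Among the sensors, *Atf6* was higher in DS after acute ethanol. Saline libraries read 105.5, 109.6 and 101.3 CPM (mice 2, 4 and 6) and ethanol libraries 113.3, 133.5 and 134.7 (mice 3, 4 and 5). The groups did not overlap, although ethanol mouse 3 lay close to the highest saline library and the highest value came from mouse 5, the most deeply sequenced DS library. The log2 fold change was 0.27 ± 0.08 (SE), with an FDR of 0.088 by edgeR and 0.038 by DESeq2. Over the 6 fits that leave out 1 library it ran from 0.23 to 0.35, and the FDR fell below 0.1 in 1 of them. Without ethanol mouse 5 the change was 0.23 with an FDR of 0.290, and the part of its depth was not tested. With all 4 DS groups in 1 fit, which brings in the incomplete library, the change was 0.27 ± 0.17 with an FDR of 0.994, and 0.27 ± 0.13 with an FDR of 0.442 when that library was left out of the same fit. With each library's trend with GC content removed it was 0.26 with an FDR of 0.118.

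Regional markers differed between the same DS libraries. Summed pallial excitatory neuron markers were 680, 703 and 825 CPM in the acute saline libraries and 240, 325 and 232 in the acute ethanol libraries, with 8 of 9 markers called lower by edgeR. Striatal projection neuron markers summed to 7528, 8924 and 7936 CPM against 10260, 9910 and 9939, with 10 of 12 called higher. Neither pair of groups overlapped, and the part of these markers in the *Atf6* difference was not tested. In bulk tissue, more cells of a type and more RNA per cell cannot be told apart.

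In the other regions after acute ethanol, the log2 fold change of *Atf6* was 0.17 ± 0.06 in CTX. It was 0.06 in dHPC, 0.16 in vHPC and −0.10 in VS, and none of these passed the test. In CTX the saline libraries were at 101.1 to 113.0 CPM and the ethanol libraries at 113.7 to 125.9, without overlap. Of the 10 cell type marker sums, 6 also differed between these CTX groups without overlap, and their part was not tested. After chronic ethanol neither edgeR nor DESeq2 called *Atf6* in any region. Without TMM factors, chronic saline and ethanol means (± SD) were 100.8 ± 6.1 and 105.4 ± 7.3 CPM in CTX. They were 92.9 ± 1.5 and 100.7 ± 3.9 in dHPC, 97.9 ± 8.0 and 100.5 ± 5.3 in vHPC, and 81.9 ± 10.2 and 85.6 ± 4.3 in VS. In DS they were 99.6 ± 11.6 and 107.7 ± 13.4, the incomplete library included. For *Eif2ak3* and *Ern1*, the pairwise log2 fold changes outside DS chronic ran from −0.14 to 0.12, and the unadjusted p was above 0.05 in every comparison. In DS chronic, *Ern1* changed by −0.38 ± 0.23 without the incomplete library, with an unadjusted edgeR p of 0.13.

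Of the transcription factors, *Atf4* had its lowest acute fold changes in the striatum. In DS the saline libraries read 76.4, 61.2 and 70.2 CPM and the ethanol libraries 60.6, 58.6 and 53.8. In VS they read 68.0, 77.1 and 84.5 against 57.9, 63.4 and 62.4. The groups did not overlap in either region, which held for 4 (DS) and 2 (VS) of the 11 gene IDs in these comparisons. The log2 fold changes were −0.27 ± 0.09 and −0.32 ± 0.11, and the edgeR FDRs of 0.151 and 0.506 missed the threshold. Pallial excitatory neuron markers moved with *Atf4* in VS as in DS: they summed to 569, 1043 and 1271 CPM in the VS acute saline libraries, led by *Slc17a7*, and to 376, 312 and 308 in the acute ethanol libraries, led by *Nptxr*, with *Emx1* at 0 in 1 of them. The groups did not overlap, 8 of the 9 markers were lower in ethanol and edgeR called 1, and the part of these markers in the *Atf4* values was not tested. After chronic ethanol *Atf4* ran from −0.34 in DS to 0.11 in CTX, and the DS value was −0.12 without the incomplete library.

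*Ddit3* read 20.1, 22.4 and 24.0 CPM in CTX after chronic ethanol, against 18.9, 17.6 and 19.9 in saline. The groups just failed to overlap, as did the summed astrocyte and mural markers, both lower in ethanol, whose part was not tested. The log2 fold change was 0.25 ± 0.10, with an edgeR FDR of 0.465. The 105-base ID had an unadjusted p below 0.05 in vHPC acute (−0.69 ± 0.30), VS acute (0.56 ± 0.23), DS chronic (0.44 ± 0.17) and the DS interaction (0.78 ± 0.25), with an FDR of at least 0.414 in each. Without the incomplete library the DS chronic value was 0.53 ± 0.26 with an unadjusted edgeR p of 0.067, and the DS interaction 0.87 ± 0.34 with an unadjusted edgeR p of 0.022.

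*Xbp1* and *Sdf2l1* were high in the libraries where *Hspa5* was highest, those of acute ethanol mouse 2 and chronic ethanol mouse 6. In dHPC after acute ethanol, *Xbp1* read 75.3 CPM in mouse 2 and 48.9, 46.3 and 43.1 in mice 3, 4 and 5, against 50.2, 45.9 and 41.0 in saline. In DS after chronic ethanol it read 103.0 in mouse 6 and 57.6, 72.4 and 62.6 in mice 1, 4 and 5, against 60.7, 51.5 and 58.2 in saline. In both regions 1 ethanol mouse lay far above the rest, and the remaining ethanol libraries overlapped saline. In vHPC, *Xbp1* without TMM factors was 42.9 ± 4.7 CPM in chronic saline and 59.4 ± 13.4 in chronic ethanol (mean ± SD, n = 3). The acute saline and acute ethanol groups there were at 51.6 ± 4.8 and 47.1 ± 5.7. No *Xbp1* comparison passed either test.

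*Hspa5* showed this most plainly. In CTX after acute ethanol it read 324 CPM in mouse 2 and 190 and 177 in mice 4 and 5, against 254, 194 and 255 in saline. In dHPC it read 411 in mouse 2 and 210, 207 and 187 in mice 3, 4 and 5, against 261, 205 and 199. In VS it read 454 in mouse 2 and 257 and 244 in mice 3 and 5, against 312, 223 and 308. Mouse 2 of the acute ethanol group was thus the highest acute library in every region where it was sampled, and the other acute ethanol libraries lay within or below the saline range in CTX and VS. Mouse 2 was not among the vHPC and DS libraries. There the acute ethanol values were 204, 208 and 175 CPM against 273, 199 and 286 in vHPC, and 251, 240 and 200 against 267, 241 and 316 in DS. The log2 fold changes of −0.37 ± 0.14 and −0.25 ± 0.10 had edgeR FDRs of 0.358 and 0.234. With 1 library left out, the DS value ran from −0.34 (without acute saline mouse 4) to −0.14 (without acute saline mouse 6).

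After chronic ethanol the high animal was mouse 6. It read 296 CPM in CTX, where ethanol mice 1 and 5 were at 179 and 208 and saline libraries at 181, 184 and 175. It read 370 in dHPC, against 157 and 184 in ethanol mice 1 and 4 and 193, 215 and 173 in saline. In DS it read 453, against 207.5, 222 and 255 in ethanol mice 1, 4 and 5 and 238, 211 and 243 in saline, and in VS it read 385, against 229 and 229 in mice 1 and 4 and 199, 240 and 217 in saline. Mouse 6 was the highest chronic library in all of these regions, and in dHPC, DS and VS the other ethanol libraries overlapped saline or lay below it.

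**Figure D3:**
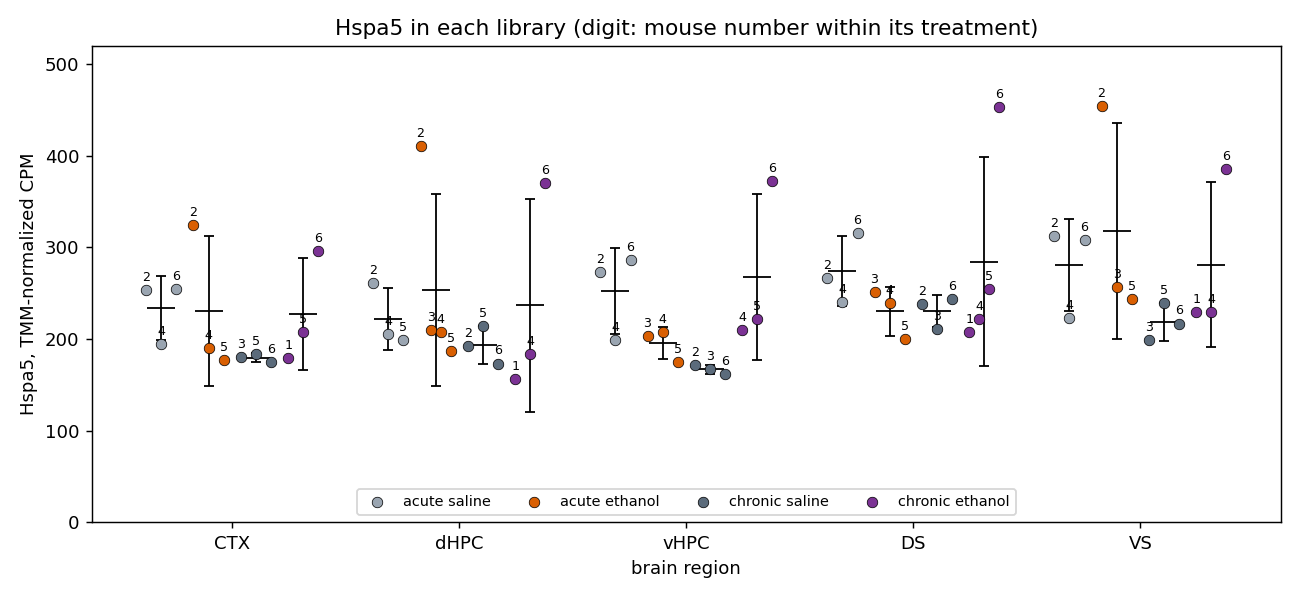
Hspa5 in all 62 libraries, in TMM-normalized CPM, by region (x axis) and condition (color), with the mouse number beside each point and a dash and bar for the group mean and SD. Mouse 2 of the acute ethanol group (324 to 454) and mouse 6 of the chronic ethanol group (296 to 453) top their paradigm in each region in which they were sampled.

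The group comparison moved with these animals. The chronic log2 fold change of *Hspa5* was 0.35 in CTX, 0.30 in dHPC, 0.30 in DS and 0.36 in VS, and without mouse 6 it was 0.12, −0.18, −0.01 and 0.07. The acute change was −0.02 in CTX, 0.19 in dHPC and 0.18 in VS, and without mouse 2 it was −0.35, −0.15 and −0.17. None of these passed edgeR's test with or without the animal. *Sdf2l1* behaved alike in 3 regions, with chronic values of 0.59 in CTX, 0.57 in dHPC and 0.55 in VS that were 0.08, −0.10 and 0.13 without mouse 6. In DS it did not, since chronic saline mouse 6 (10.9 CPM) was nearly as high as chronic ethanol mouse 6 (11.1 CPM), and the value was −0.16 with and −0.48 without the ethanol animal. Its acute value in CTX turned from 0.07 to −0.51, with an edgeR FDR of 0.084, when mouse 2 was left out.

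In vHPC the chronic groups of *Hspa5* were separate even apart from mouse 6. The saline libraries read 171.8, 167.1 and 161.9 CPM (mice 2, 3 and 6) and the ethanol libraries 209.6, 222.3 and 372.1 (mice 4, 5 and 6). The lowest ethanol library was above the highest saline library. The log2 fold change was 0.68 ± 0.19, with an FDR of 0.354 by edgeR and 0.038 by DESeq2, and without mouse 6 it was 0.37 ± 0.10 with an edgeR FDR of 0.418. The 6 fits that leave out 1 library gave 0.37 to 0.84 and an FDR of 0.079 to 0.877, below 0.1 in 1 of them, the fit without ethanol mouse 4. Mouse 1 of the chronic ethanol group, at 0.87 times the region median over the 4 regions in which it was sampled, was not among the vHPC libraries.

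The other targets followed in part. *Sdf2l1* read 6.998, 11.3 and 16.7 CPM in vHPC chronic ethanol mice 4, 5 and 6, against 5.89, 7.07 and 7.36 in saline, an overlap at 1 library, with a log2 fold change of 0.78 ± 0.29 and an edgeR FDR of 0.460. Chronic ethanol mouse 6, the highest here, stood at 1.93 times the region median for *Sdf2l1* over 5 regions (1.79 to 2.24). *Herpud1* had 38.0, 43.4 and 46.1 against 31.9, 38.9 and 42.3, a log2 fold change of 0.17. Elsewhere *Herpud1* had its lowest unadjusted p in dHPC after acute ethanol. It read 55.6, 43.0, 42.3 and 38.6 CPM there, against 37.3, 34.8 and 33.5 in saline, without overlap, and the log2 fold change of 0.35 ± 0.11 had an edgeR FDR of 0.455.

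In vHPC the change of *Hspa5* had opposite signs in the paradigms, and the interaction was 1.05 ± 0.27 on the log2 scale, with an FDR of 0.289 by edgeR and 0.0195 by DESeq2. The 12 fits that leave out 1 library gave 0.74 to 1.20 and an edgeR FDR of 0.120 to 0.599. Both arms contribute: chronic saline lay 0.60 below acute saline (edgeR FDR 0.273), and chronic ethanol 0.45 above acute ethanol (edgeR FDR 0.898). The acute saline vHPC libraries include mice 2 and 6, which lay at 1.26 (1.11 to 1.33) and 1.33 (1.28 to 1.39) times the region median over their regions. Acute saline mouse 4 lay at 0.98, and chronic ethanol mouse 6 at 1.72. Each fit left out only 1 library, and the joint part of these mice in the interaction was not tested. *Dnajb9* had the same shape as *Hspa5*. It read 34.5, 28.9 and 31.8 CPM in acute saline, 24.2, 28.9 and 26.1 in acute ethanol, 25.9, 26.3 and 19.9 in chronic saline, and 35.4, 33.1 and 26.1 in chronic ethanol. Its chronic ethanol library of mouse 6 was the lowest of its group, where that of *Hspa5* was the highest. The interaction of *Dnajb9* was 0.66 ± 0.20, with an FDR of 0.301 by edgeR and 0.083 by DESeq2, and 0.54 to 0.78 with 1 library left out (edgeR FDR 0.152 to 0.599).

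Isoform counts, which share reads with the gene counts, were tested likewise. Isoforms of the same gene also share reads with each other and are not independent, so a number of isoforms can rest on few genes. Of 39 member isoforms tested in each comparison, edgeR called 0 in all 15. Outside vHPC chronic and the vHPC interaction, those at an unadjusted edgeR p below 0.05 numbered at most 11, in DS acute (13.5% of all isoforms). CTX chronic held 8 (9.8%), while dHPC chronic (7.23%) and the dHPC interaction (4.39%) held 0. In vHPC chronic 13 had an unadjusted edgeR p below 0.05, against 8.81% of all isoforms, and DESeq2 called 4, all of *Hspa5*, while edgeR called 0.0402% and DESeq2 0.723% of all isoforms. In the vHPC interaction 14 had an unadjusted edgeR p below 0.05, against 10.6% of all isoforms, and DESeq2 called 7, of which 6 were of *Hspa5* and 1 of *Dnajb9*, against 0% (edgeR) and 1.39% (DESeq2) of all isoforms.

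Cell type markers differed between the vHPC libraries of both paradigms. Choroid plexus markers summed to 28.01, 215 and 121 CPM in chronic saline mice 2, 3 and 6 and to 932, 3307 and 1416 in chronic ethanol mice 4, 5 and 6, led by *Ttr* in all but saline mouse 2, where *Kl* led and *Aqp1*, *Folr1* and *Kcnj13* were at 0. All 12 were higher in ethanol, and edgeR called 7, which make up 7 of the 11 genes called in that comparison. Pallial excitatory neuron markers summed to 3394, 3466 and 4349 CPM against 3238, 2157 and 2462, endothelial markers to 145, 161 and 164 against 125, 136 and 127, and mural and fibroblast markers to 126, 127 and 138 against 117, 104 and 110. None of these 4 pairs of groups overlapped. In the acute arm 3 other pairs did not overlap. Dentate granule neuron markers summed to 274, 228 and 89.5 CPM in saline and 424, 339 and 522 in ethanol. Mural and fibroblast markers summed to 143, 159 and 152 against 128, 106 and 100.3, and microglia markers to 302, 324 and 315 against 346, 330.1 and 335. The part of all these markers in the *Hspa5* and *Dnajb9* values of vHPC, the interactions included, was not tested. Over 61 libraries, deviations of *Hspa5* from the group mean had r = −0.17 with those of choroid plexus markers, and between −0.24 (myelin) and 0.38 (endothelial) with the 10 marker sums. These values describe the spread within groups and do not bear on the difference between groups.

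Because the same mice were sampled in several regions, the spread within groups could be divided. For each gene, squared deviations of log2 CPM from the group mean were split into a part that each mouse carried across its regions and a remainder, over the 61 complete libraries. The mouse part was 95.3% for *Hspa5*, the 5th highest of 21425 genes, 86.5% for *Xbp1* and 84.9% for *Sdf2l1*. The median gene had 31.4%, and 29.3% follows from the degrees of freedom alone (12 of 41). *Herpud1* was at 63.1%, *Ddit3* at 48.7%, *Eif2ak3* at 45.5%, *Atf4* at 36.1%, *Ern1* at 33.2%, the 105-base *Ddit3* ID at 31.1%, *Dnajb9* at 27.8% and *Atf6* at 21.8%. ATF6 and XBP1 targets were thus at both ends of this order, with *Hspa5* at the top and *Dnajb9* below the median gene.

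**Figure D4:**
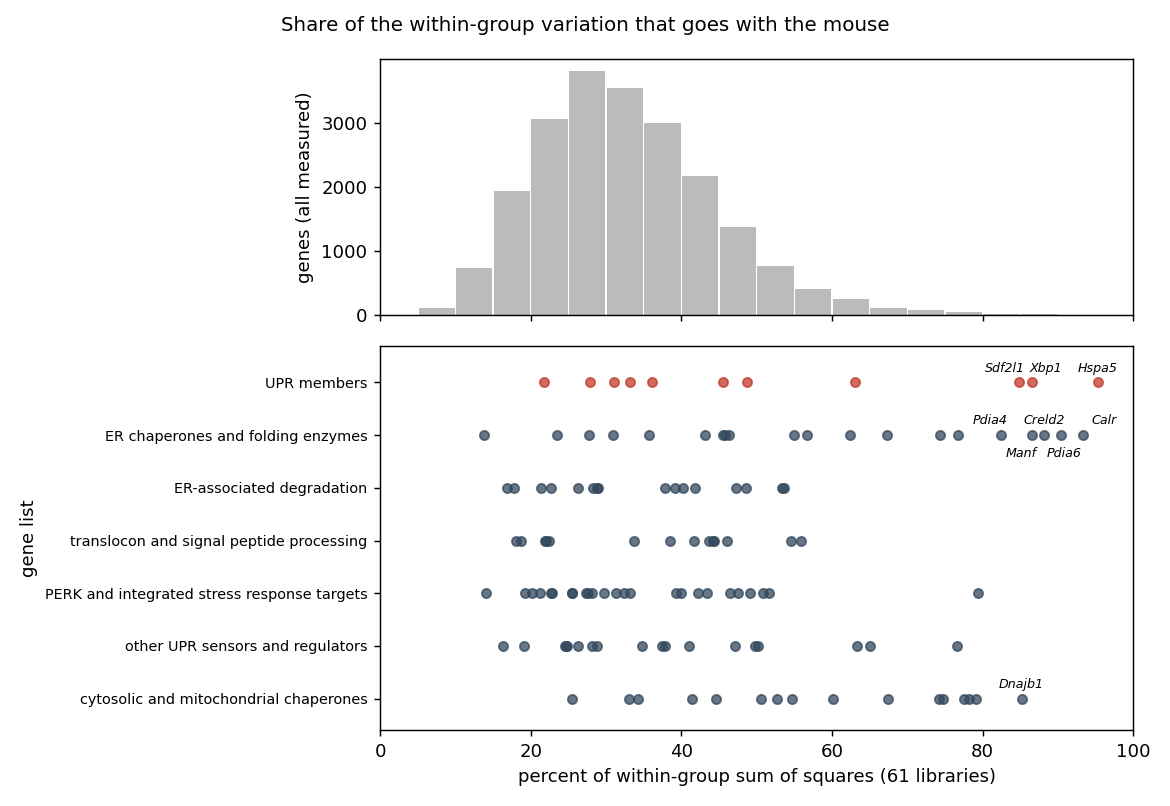
Percent of the within-group sum of squares that goes with the mouse, over 61 libraries, as a histogram of all 21425 measured genes (top) and as 1 point per gene for the members and 6 other lists (bottom). Hspa5 (95.3), Xbp1 (86.5) and Sdf2l1 (84.9) lie far to the right of the median gene (31.4), as do several ER chaperones such as Calr (93.3).

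Expressed as the mean fold of the region median, *Hspa5* was 1.85 in acute ethanol mouse 2 (3 regions) and 1.72 in chronic ethanol mouse 6 (5 regions). Acute saline mice 6 and 2 followed at 1.33 and 1.26, and the other 12 mice lay between 0.86 and 1.07. *Sdf2l1* was 2.17, 1.93 and 1.37 in the first 3 of these mice, and *Xbp1* 1.46, 1.46 and 1.19. Of the saline mice above 1.2, both were acute, and the 4 chronic saline mice lay between 0.86 and 1.00. With the mouse as the unit (4 against 4), the mean log2 level was compared by an exact two-sided permutation test. The difference was 0.03 (permutation p = 0.886) for acute and 0.28 (permutation p = 0.229) for chronic ethanol, where the smallest p this design allows is 0.0286. Mice were weighted equally, although they rest on 1 region (acute saline mouse 5, dHPC) to 5 regions.

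**Figure D5:**
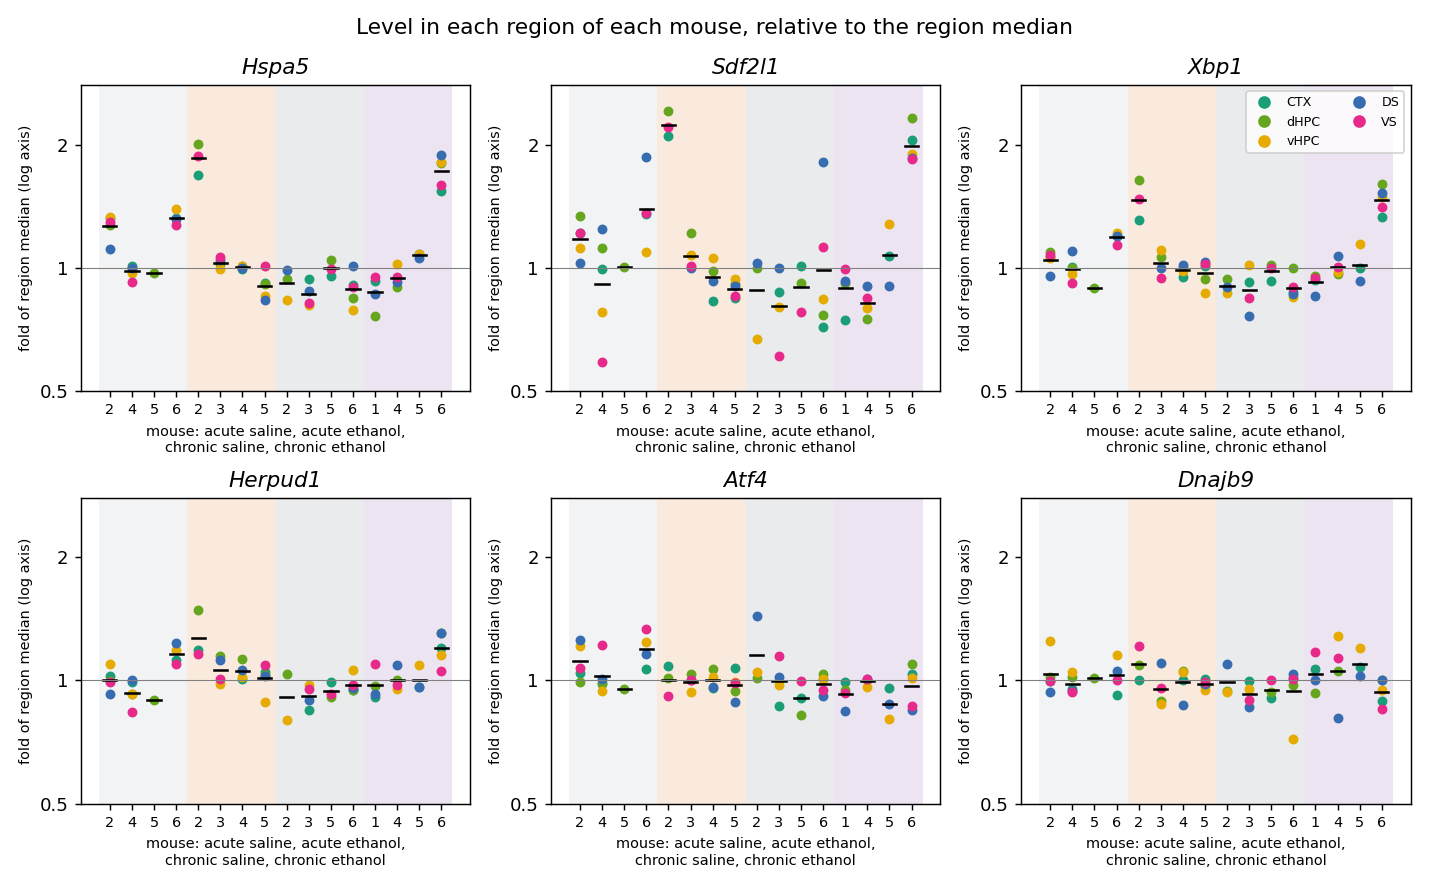
Level of 6 members in each region of each mouse, as the fold of the region median on a log axis, with color for the region and a dash for the mouse mean. For Hspa5, Sdf2l1 and Xbp1 the points of acute ethanol mouse 2 and chronic ethanol mouse 6 sit together above the line in every region sampled, while those of Atf4 lie on both sides of 1. For Dnajb9 the points of the first mouse lie between 1.00 and 1.21 and those of the second between 0.85 and 1.00.

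Deviations from the group mean also show which members varied with *Hspa5*. Over the 61 complete libraries, which share mice and are therefore not independent, r was 0.92 for *Xbp1*, 0.90 for *Sdf2l1*, 0.76 for *Herpud1* and 0.46 for *Ddit3*. It was 0.12 for *Atf4*, 0.04 for *Dnajb9*, −0.02 for *Atf6*, −0.09 for *Eif2ak3* and −0.22 for *Ern1*. Within batch 1 (25 libraries) and batch 2 (36 libraries), r was 0.96 and 0.89 for *Xbp1*, 0.94 and 0.87 for *Sdf2l1*, 0.89 and 0.64 for *Herpud1*, and 0.76 and 0.26 for *Ddit3*. With all 62 libraries *Herpud1* had r = 0.13, since the incomplete library reads 0 for it.

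Outside the set, the genes most like *Hspa5* over all 62 libraries were *Pdia6* (r = 0.94), a protein disulfide isomerase, *Creld2* (0.91), an ER folding factor, *P4ha1* (0.90), a prolyl hydroxylase of collagen, *Hspa1a* (0.84), the inducible cytosolic Hsp70, and *Uhrf2* (0.83). Over the 61 complete libraries *Calr* (0.95), *Pdia4* (0.91), *Manf* (0.89) and *Hyou1* (0.85), ER folding factors on the lost chromosomes, also ranked among the first 9. These 4 were picked out after their values were seen. Of the 23 measured genes besides *Hspa5* with the ER stress response element in the promoter, 6 had r above 0.5 (*Calr*, *Pdia6*, *Creld2*, *Hsp90b1*, *Dnajc3* and *Syvn1*) and the median r was 0.21. Of all 21424 other genes, 445 had r above 0.5 and the median was −0.02.

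The rest of the pathway was read through lists of ER chaperones and folding enzymes (20 genes), ER-associated degradation (16), translocon and signal peptide processing (15), targets of PERK and the integrated stress response (25), other sensors and regulators (19) and cytosolic and mitochondrial chaperones (16). In all, 9 genes of these lists were called by edgeR, 1 in CTX and 8 in DS, all after acute ethanol. In CTX, *Slc7a11*, the cystine transporter of the ATF4 program, fell by 0.38 ± 0.07 on the log2 scale (edgeR FDR 0.036). In DS, *Wfs1*, an ER membrane protein that restrains ATF6, rose by 0.87 ± 0.13 (edgeR FDR 0.0021) and *Mbtps1*, the Golgi protease that makes the first cut in ATF6, by 0.37 ± 0.07 (edgeR FDR 0.015). *Vldlr* (0.32), *Txndc5* (0.31) and *Ssr3* (0.25) also rose there, and *Ube2j1* (−0.26), *Hsp90aa1* (−0.23) and *Hspa8* (−0.23) fell. The share of all genes called in DS acute was 5.15%, and the marker sums given above differ between these libraries, as do 6 of 10 between those of CTX acute. DESeq2 called 26 in the 10 pairwise comparisons. It called 10 in DS acute and 2 in CTX acute, and 8 in vHPC acute, where 3 rose (*Wfs1* by 1.09, *Slc7a5* and *Atf6b*) and 5 fell (*Hsp90aa1*, *Chordc1*, *Ube2j1*, *Dnaja1* and *Slc7a11*). The others were *Pdia4* (0.67) and *Dnajc3* (0.56) in vHPC chronic, *Slc7a5* (0.31) in dHPC acute, *Ube2g2* (0.31) in dHPC chronic, *Slc7a11* (−0.58) in CTX chronic and *Wfs1* (1.37) in VS chronic. These DESeq2 calls outside edgeR's 9 are read against the DESeq2 shares of all genes given above. Of 10 marker sums, 4 did not overlap between the groups in VS chronic and in vHPC chronic, and 3 in vHPC acute. In CTX chronic and in dHPC chronic 2 did not overlap, and in dHPC acute 0. The part of these markers in the calls was not tested.

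Counts by list set the members beside these genes. In DS acute, edgeR called 1 of 20 ER chaperones higher and 0 lower, 0 of 16 degradation genes higher and 1 lower, 1 of 14 translocon genes tested higher, 1 of 25 PERK targets higher, 2 of 18 other regulators tested higher and 2 of 16 cytosolic chaperones lower. The median log2 fold change was −0.09 for ER chaperones and −0.16 for cytosolic chaperones, against 0.00 for all genes.

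In the vHPC interaction edgeR called none of these genes, as it called none in the whole table. The median was 0.37 for the ER chaperones, 18 of 20 of them above 0, and 0.33 for the cytosolic chaperones, 15 of 16 above 0, against 0.43 for the members and 0.01 for all genes. It was 0.09 for degradation, 0.10 for translocon, −0.01 for PERK targets and 0.00 for other regulators. At an unadjusted edgeR p below 0.05 were 10 ER chaperones, 6 cytosolic chaperones, 3 PERK targets, 3 other regulators, 1 degradation gene and 1 translocon gene, against 11.5% of all genes. DESeq2, which called 2.02% of all genes, called 7 ER and 3 cytosolic chaperones and 1 translocon gene (*Sec62*) higher, and 2 PERK targets (*Slc7a5* and *Atf5*) and 1 other regulator (*Atf6b*) lower. The lowest p of the ER chaperones were those of *Hsp90b1* (0.56 ± 0.14, edgeR FDR 0.289), *Dnajc3* (0.89 ± 0.22, edgeR FDR 0.289) and *Pdia4* (0.89 ± 0.24, edgeR FDR 0.296). Among PERK targets the lowest were *Slc7a5* (−0.59 ± 0.15), *Atf5* (−0.68 ± 0.19) and *Chac1* (−1.15 ± 0.34), with edgeR FDRs of 0.289, 0.296 and 0.301. These 3 ER chaperones and 3 PERK targets, picked by lowest p, had opposite signs, and none passed edgeR's threshold. The PERK list as a whole, with its median of −0.01, did not lean to either side. Of the cytosolic chaperones the lowest were *Chordc1*, an HSP90 cochaperone with the lowest p of all listed genes (0.84 ± 0.17), *Dnajb4* (0.62 ± 0.14) and *Hsp90aa1* (0.46 ± 0.15), with edgeR FDRs of 0.289, 0.289 and 0.326. In the remaining lists they were *Sec62* (0.41), *Ssr3* (0.30) and *Sec61g* (0.31) of the translocon, *Derl2* (0.57), *Ube2j1* (0.30) and *Fam8a1* (0.22) of degradation, and *Atf6b* (−0.49), *Wfs1* (−1.41) and *Ptpn1* (−0.35) of the other regulators, with edgeR FDRs from 0.296 to 0.507. The marker sums that separate ethanol from saline in vHPC, 4 of 10 in chronic and 3 of 10 in acute libraries, belong to the same libraries as these list values. So do mice that stand apart for the lists across regions: the median gene was at 1.11 (ER) and 1.13 (cytosolic chaperones) times the region median in chronic ethanol mouse 6, at 1.06 and 1.12 in acute saline mouse 2 and at 1.03 and 1.14 in acute saline mouse 6. The part of either in the list values was not tested.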

How the data were processed

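Poly(A) RNA of 62 mouse brain libraries was analysed from the deposited gene and isoform count tables. Per the labels and the study's methods, the authors used cutadapt (5.0) for trimming, STAR (2.7.10a) for alignment to GRCm39 and featureCounts (2.0.6) for read pairs under the reverse-stranded setting, and counted pairs that overlap several features or map to several places for each. The deposited tables hold these raw counts, not normalized or filtered. The submitters' notes also name bcl2fastq.

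Genes that reached 5 counts in 2 or more libraries of a group were tested with edgeR (4.0.16 with limma 3.58.1, in R 4.3.3), normalized by TMM with a prior count of 0.125, within each region and on the whole table, with Benjamini-Hochberg adjustment and an FDR threshold of 0.1. The study's design (comparisons, filter and threshold) was kept, and its tool DESeq2 (1.42.0) was an alternative. Levels are TMM-normalized CPM, and correlations use log2(CPM + 0.5) minus the group mean. Groups and mice came from the labels. No 2 libraries of a group agreed within sampling noise. With 3 or 4 mice per group, p-values measure the spread between mice, and counts without molecular identifiers carry more than counting error.

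The members, gene lists and tests were chosen with earlier results of these data known. Named genes are all members, listed genes with an edgeR FDR below 0.1 (at most 8 per test), the 3 lowest p per list in the vHPC interaction and the 5 genes most like *Hspa5*; all others, such as listed genes called by DESeq2 alone, genes named for a promoter element and single marker genes, were chosen after their values were seen. Promoter sequences come from RefSeq (GRCm38.p6) and the *Xbp1* intron from the GENCODE annotation (GRCm39). Alternatives were DESeq2, its size factors in edgeR, other low-count filters, 1 fit per region, each library left out and a fit with a replicate block. Removal of a GC trend, the shared DS fit without the incomplete library, the 61-library and within-batch correlations, and the test over mice were chosen after seeing the data. Coordinates of the 2 builds are not mixed.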

Additional observations from a re-analysis of the deposited data

Results flagged for a closer look

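Groups of 4 libraries allow a check for a library far from the others, and 22 such groups (11 gene IDs in 2 groups) were examined, of which chance alone would pick out about 1 in 20. In dHPC after acute ethanol, *Hspa5* was 410.606 CPM in mouse 2, against 210, 207 and 187 in the others. In DS after chronic ethanol, *Sdf2l1* was 11.1299 CPM in mouse 6, against 5.57, 5.43 and 5.42, and *Dnajb9* was 35.3649 CPM in mouse 4, the lowest, against 43.8, 44.9 and 43.7.

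The effect of ethanol in vHPC differed between the acute and the chronic paradigm in DESeq2's interaction test for *Hspa5* (1.05997 on the log2 scale) and for *Dnajb9* (0.669499). Neither passed edgeR's test at an FDR below 0.1.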

How the results depend on the processing

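The number of members called in DS acute was 1, and it was 3 without a low-count filter, 0 with all 4 groups in 1 fit (with or without the incomplete library) and 0 with the GC trend removed. In vHPC chronic it went from 0 to 1 with DESeq2 and 3 without the filter, and in the vHPC interaction from 0 to 2 with DESeq2 and 2 without the filter. Member isoforms called went from 0 to 4 in vHPC chronic and from 0 to 7 in the vHPC interaction with DESeq2. Leaving out 1 library gave 0 to 1 members in DS acute, 0 to 1 in CTX acute (*Sdf2l1*, without acute ethanol mouse 2) and 0 to 2 in vHPC chronic (*Hspa5* and *Sdf2l1*, without chronic ethanol mouse 4). The cause of these shifts was not tested. Dropping the filter brings more genes into the normalization, the fit and the adjustment of p-values alike. In all, 207 alternative member counts kept their size, 7 were higher and 7 lower. The main count was 0 in every comparison but DS acute, so a count could fall only there, and all 7 lower counts are of DS acute. Without TMM factors, 211 group levels moved by less than 1 SD and 9 by more.

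Same-numbered mice of different conditions are different animals, and the deviations of the 14 same-numbered pairs had r from −0.28 (CTX chronic, mouse 6) to 0.34 (dHPC chronic, mouse 6), with a median of 0.06. In the 1 comparison with 3 shared numbers, dHPC acute, r was −0.01, −0.02 and 0.02. A fit with the replicate block called 0 members in each of the 3 pairwise comparisons and 5 interactions where it could be fitted. Lowest in CPM were the 105-base *Ddit3* ID (saline means of 3.27 to 3.88), *Sdf2l1* (7.61 to 9.03) and *Ern1* (9.76 to 12.9). The part of depth in their results was not tested. An FDR above the threshold does not show that their levels were equal.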

Other observations

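At the other end of the correlation with *Hspa5* stood *Cirbp*, a cold-inducible RNA-binding protein, with the lowest r of 21424 genes (−0.83 over 61 libraries, −0.95 in batch 1 and −0.78 in batch 2). It was chosen after its values were seen. Its mean fold of the region median was 0.70 in acute ethanol mouse 2, 0.74 in chronic ethanol mouse 6, 0.81 in acute saline mouse 6 and 0.82 in acute saline mouse 2, the 4 mice highest in *Hspa5*, in which *Hspa1a* was 3.08, 1.98, 2.15 and 1.76. The mouse part of its within-group variation was 89.4%. *Rbm3*, another cold-inducible RNA-binding protein, had a mouse part of 91.3% and r = −0.47 with *Hspa5*, and its lowest folds were 0.79 in acute saline mouse 2 and 0.82 in acute ethanol mouse 2. *Dnajb1*, a cytosolic J-domain chaperone, had a mouse part of 85.2% and stood at 1.432, 1.425 and 1.399 in acute saline mouse 6, acute ethanol mouse 2 and chronic ethanol mouse 6. These last 2 genes were likewise chosen after their values were seen.

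The genes with a higher mouse part than *Hspa5* (95.3%) were *Mid1* (96.9%), *Ide* (96.9%), *Erdr1y* (95.5%) and *Erdr1x* (95.5%), which were likewise picked out after their values were seen. The last of these share near-identical copies, so their counts are uncertain.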
